A study of Mus musculus with 9 samples.

Results

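Scd1, Scd2, Fads1, Fads2, Elovl5 and Elovl6 encode fatty acid desaturases and elongases, the membrane enzymes of the endoplasmic reticulum that put double bonds into fatty acids and lengthen them. They are 6 named genes among 35580 genes with a transcript in the deposited tables, and they were chosen by name as one enzyme group, not by a threshold on their values. The choice was made with earlier results of these data known. All 6 passed the filter of a mean of at least 1 CPM (counts per 1000000 counts of the scaled library size), as did 13376 genes in all.

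The 9 libraries were made from mouse embryonic stem cell clones of the E14 line, numbered 1, 4, 6, 8, 10, 11, 13, 14 and 17. The clones were isolated from the bulk line because they differed in lipid droplet size, and all were expanded on gelatin in medium with fetal bovine serum and leukaemia inhibitory factor, with no other treatment or engineered allele in the labels. No clone is tied to a droplet size by the labels, so no groups were formed, no comparison between groups was made and no test was run. Each clone is 1 library without a replicate, so a difference between clones is shown against counting error only, and a difference between clones cannot be told apart from a difference between cultures or library preparations. Sequencing reads without molecular identifiers are not independent molecules, so the true error is larger than the counting intervals given here. In bulk RNA, fewer cells with a transcript and less transcript per cell cannot be told apart.

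Cells make saturated fatty acids in the cytosol, chiefly palmitate, and take others from serum. Elovl6 lengthens palmitate to stearate, and the stearoyl-CoA desaturases Scd1 and Scd2 turn saturated into monounsaturated chains, the main acyl groups of stored triglyceride and cholesteryl ester. Fads2 and Fads1 add double bonds to the essential polyunsaturated fatty acids of the diet or serum, and Elovl5 lengthens the chains between those steps. Sterol regulatory element-binding proteins, encoded by Srebf1 and Srebf2, are known activators of these genes in liver and other tissues.

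The summed estimated counts ran from 10783718 in clone 1 to 14309662 in clone 6, and 3 counts corresponded to 0.209 to 0.293 CPM. The 7 embryonic stem cell markers, among them Pou5f1, Sox2 and Nanog, summed to 3891 and 3560 CPM in clones 10 and 11 and to between 5414 and 6229 CPM in the other 7. The defining markers of fat cells and liver cells were at or near 0: the summed level was at most 1.07 CPM over 6 adipocyte markers, with Lep at 0 counts in all clones, and at most 0.577 CPM over 5 hepatocyte markers. Clones 10 and 11 stood apart in the sums of other lists too, though not in every gene of them. The 5 trophoblast markers, mainly the keratins Krt8 and Krt18, summed to 450 and 468 CPM there and to 28.8 to 100.2 CPM in the other 7 clones. In the same list, Gata3 was highest in clone 14 (2.41 CPM) and Elf5 in clone 13 (1.58 CPM). The 7 fibroblast markers, mainly Col1a1, summed to 54.0 and 63.4 CPM in clones 10 and 11 and to 6.0 to 20.2 CPM elsewhere. Of these markers, Dcn, Lum and Postn did not reach a mean of 1 CPM. Thy1 was highest in clone 4, at 10.4 CPM, against 7.39 and 7.54 CPM in clones 10 and 11. The 5 primitive streak and mesoderm markers summed to 19.8 and 42.8 CPM in clones 10 and 11 and to 3.64 to 11.4 CPM elsewhere. Among them, Eomes was higher in clone 4 (7.80 CPM) than in clone 10 (6.74 CPM). The 5 primitive endoderm markers summed to 3.58 to 9.85 CPM over all clones. For none of the 6 genes did clones 10 and 11 together lie outside the other 7 clones. They held the highest or lowest value only for Elovl6, lowest in clone 10. Without them only that range could change, from 0.41 to 0.37.

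Sequence bears on how well the 2 stearoyl-CoA desaturases can be told apart in short reads. Scd1 lies on chromosome 19 at chr19:44394455-44407879 on the minus strand and Scd2 at chr19:44293674-44306864 on the plus strand (GRCm38). Their coding sequences (GENCODE M21) were identical at 90.3% of 1065 aligned bases, and the longest run without a difference was 147 bases. The 2 coding stretches of 207 bases around that run are printed because a read that falls between their differing bases could come from either gene. Both stretches start in exon 4 and end in exon 5 of 6, so the intron between is left out, and capitals mark the 2 bases that differ. The Scd1 stretch spans chr19:44400311-44401835 on the minus strand and the Scd2 stretch chr19:44299672-44301275 on the plus strand.
Scd1: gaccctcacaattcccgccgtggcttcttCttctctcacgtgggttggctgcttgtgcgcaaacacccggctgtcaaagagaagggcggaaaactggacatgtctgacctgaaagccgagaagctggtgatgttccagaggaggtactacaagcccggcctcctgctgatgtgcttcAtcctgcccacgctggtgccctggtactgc
Scd2: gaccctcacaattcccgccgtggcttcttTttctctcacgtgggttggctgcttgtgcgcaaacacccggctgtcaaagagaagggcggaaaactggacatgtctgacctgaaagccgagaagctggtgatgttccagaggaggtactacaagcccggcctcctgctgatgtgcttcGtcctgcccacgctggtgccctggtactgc
Over the whole transcripts, 8.14% of the 4794 runs of 31 bases in Scd1 also occurred in a transcript of another gene, with 284 shared with Scd3, 252 with Scd2 and 166 with Scd4. For Scd2 the share was 6.29% of 5425 runs. More than 9 in 10 runs of each transcript were therefore its own, and the effect of dividing the shared reads between the genes was not tested.

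Fads1, Fads2 and Elovl5 share far less with other genes. Fads1 (chr19:10182888-10196877, plus strand) and Fads2 (chr19:10062765-10101746, minus strand) were identical at 67.0% of 1326 aligned coding bases, with a longest shared run of 17 bases that is printed to show how short it is.
Fads1 and Fads2: caccacctcttccccac
No run of 31 bases in Fads1 or in Elovl5 occurred in another gene, and 24 runs of Fads2 (0.769%) occurred in Fads3. Elovl5 (chr9:77917364-77984519, plus strand) and Elovl6 (chr3:129532355-129638495, plus strand) were identical at 56.6% of 749 aligned coding bases. In Elovl6, 6.41% of the runs occurred elsewhere, near the 6.29% of Scd2, and 356 of these runs were in the processed pseudogene Gm11295.

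RefSeq promoter windows of 250 bases before the start (GRCm38.p6) were at hand for Fads2, Elovl5 and Elovl6. They were searched on both strands for 5 motifs. The sterol regulatory element TCACNCCAC occurred in 1.05% of all 32851 promoter windows of this length, the inverted or direct CCAAT box, spelled CCAAT, in 33.8%, and the E-box, spelled CACGTG, in 6.02%. The GC box, spelled GGGCGG, occurred in 32.7% and the TATA box, spelled TATAAA, in 12.4%, and no match in the 3 windows overlapped another. The Elovl5 window held 3 matches, an E-box 161 bases before the start and CCAAT on the opposite strand at 71 and 17 bases, and it is printed as the window with the most matches. It spans chr9:77917115-77917363 on the plus strand, cut 1 base short of the start of the GENCODE gene, and capitals mark the matches.
Elovl5 promoter: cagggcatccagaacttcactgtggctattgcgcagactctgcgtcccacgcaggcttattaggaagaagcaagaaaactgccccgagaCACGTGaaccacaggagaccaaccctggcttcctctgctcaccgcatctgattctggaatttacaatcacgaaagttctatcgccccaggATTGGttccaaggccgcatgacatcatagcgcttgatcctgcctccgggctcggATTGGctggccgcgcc
The Fads2 window held 1 match, a GC box 186 bases before the RefSeq start, and 243 of its bases lie inside the GENCODE gene. The Elovl6 window held none. TCACNCCAC and TATAAA were not in these 3 windows, which says nothing of other parts of the genes.

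Scd2 had the highest level per length of the 6 genes in all 9 clones. In TPM, a level that accounts for transcript length, Scd2 had a median of 146 TPM over clones (102 to 175) and stood above 92.0% of the 13376 genes by its mean. Scd1, which makes the same kind of double bond, had a median of 17 TPM (8.81 to 20.6). The Scd2 to Scd1 ratio of TPM was 7.13 in clone 1, 8.59 at the median and 11.6 in clone 14, and Scd2 made up 86.9% to 91.4% of the summed TPM of Scd1 to Scd4. Their levels did not overlap in any clone.

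**Figure D1:**
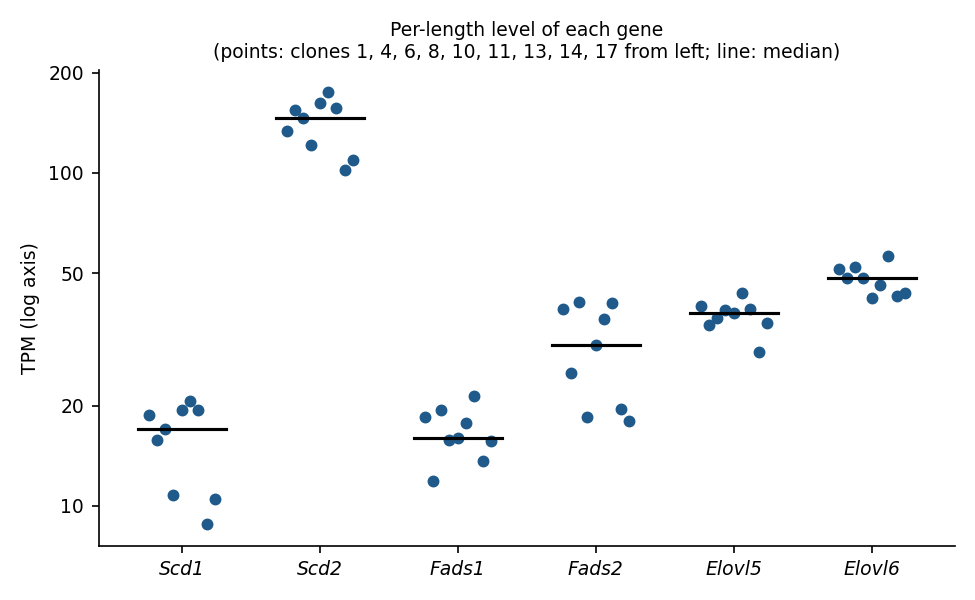
TPM of the 6 genes in the 9 clones, with 1 point per clone in the order 1, 4, 6, 8, 10, 11, 13, 14 and 17 from the left and a line at the median. All 9 Scd2 points (102 to 175 TPM) lie above those of the other 5 genes, and on a log axis Scd1 and Fads2 spread the most.

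Below Scd2 came the elongases. Elovl6 had a median of 48.2 TPM (41.9 to 56.2) and Elovl5, the elongase of polyunsaturated chains, a median of 37.9 TPM (29.0 to 43.4). Together they made up 75.6% (clone 10) to 87.0% (clone 4) of the summed TPM of Elovl1 to Elovl7. Fads2 had a median of 30.4 TPM (18.0 to 41.0) and Fads1 a median of 15.9 TPM (11.9 to 21.4). By their medians the order was Scd2, Elovl6, Elovl5, Fads2, Scd1 and Fads1, and only Scd2 was separated from its neighbour over all clones, since the ranges of each of the other neighbouring pairs overlapped. Compared within each clone, Elovl6 exceeded Elovl5 and Fads2 exceeded Scd1 in all 9 clones. The order of Elovl5 and Fads2, and that of Scd1 and Fads1, changed between clones. The place of Fads2 rests on its transcript model: the model in the tables has 1508 bases and that of GENCODE M21 3150. A longer model could change both its count and its TPM, and the effect was not tested. In counts, Fads1 exceeded Fads2 in every clone, but counts grow with model length and the Fads1 model in the tables has 3456 bases.

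Scd1 varied more between clones than Scd2. It was at 69.5 CPM in clone 1, 57.4 in clone 4, 58.4 in clone 6, 36.4 in clone 8, 64.4 in clone 10, 64.9 in clone 11, 65.4 in clone 13, 31.2 in clone 14 and 36.5 in clone 17. Clones 8, 14 and 17 were low and did not overlap the other 6. From clone 14 to clone 1 the difference was 2.23-fold (95% exact conditional interval of the count ratio 1.97 to 2.52), a range of 1.15 on the log2 CPM scale. The step from clone 17 up to clone 4 alone was 1.57-fold (1.40 to 1.76). Without clones 8, 14 and 17, the range of Scd1 was 0.27.

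Scd2 was at 561 CPM in clone 1, 637 in clone 4, 568 in clone 6, 465 in clone 8, 609 in clone 10, 623 in clone 11, 598 in clone 13, 408 in clone 14 and 432 in clone 17. The same clones 8, 14 and 17 were lowest and again did not overlap the rest. The difference from clone 14 to clone 4 was 1.56-fold (1.51 to 1.62), a range of 0.64, and 0.18 without those 3 clones. With its high counts, Scd2 had 4 of its 8 steps between neighbouring clones in the order larger than counting error, among them all 3 steps at the low end. The Scd2 to Scd1 ratio of counts was 13.1 (11.8 to 14.5) in clone 14 and 8.07 (7.46 to 8.73) in clone 1, so the relative difference was larger for Scd1.

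**Figure D2:**
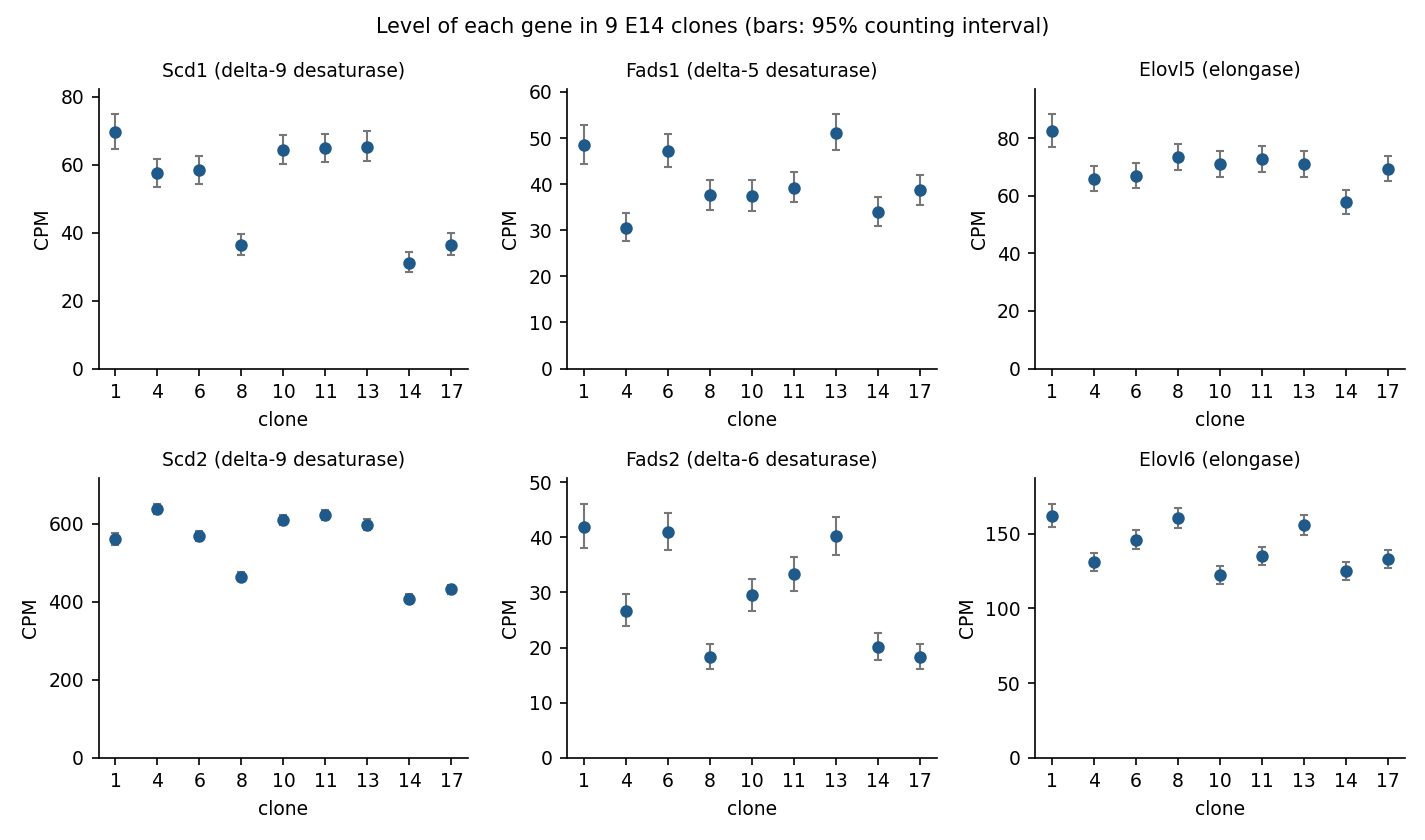
CPM of each gene in the 9 clones, with bars for the 95% Poisson counting interval of each single library. Scd1, Scd2 and Fads2 are low in clones 8, 14 and 17 (31.2 to 36.5 CPM for Scd1 against 57.4 or more elsewhere), while Fads1, Elovl5 and Elovl6 show no such gap.

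Fads2, the desaturase that starts the conversion of the essential fatty acids, had the largest range of the 6. It was at 41.9 CPM in clone 1, 26.7 in clone 4, 40.9 in clone 6, 18.3 in clone 8, 29.5 in clone 10, 33.3 in clone 11, 40.2 in clone 13, 20.1 in clone 14 and 18.3 in clone 17. Clones 8, 14 and 17 lay below and clones 1, 6 and 13 above all others, with clones 4, 10 and 11 between. The difference from clone 8 to clone 1 was 2.29-fold (1.96 to 2.69), a range of 1.19. Counting error separated the upper 3 from clone 11 by 1.21-fold (1.07 to 1.37) and clone 4 from clone 14 by 1.33-fold (1.13 to 1.56).

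Fads1, which acts after Fads2 and lies beside it, shared the upper end of that order and not the lower. It was at 48.5 CPM in clone 1, 30.5 in clone 4, 47.2 in clone 6, 37.6 in clone 8, 37.4 in clone 10, 39.3 in clone 11, 51.1 in clone 13, 34 in clone 14 and 38.7 in clone 17. Clones 1, 6 and 13 lay above the other 6, with 1.20-fold (1.07 to 1.35) between clone 6 and clone 11, and clone 4 was lowest. The difference from clone 4 to clone 13 was 1.68-fold (1.48 to 1.90), a range of 0.74, and 0.59 without clone 4.

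The balance of the 2 polyunsaturated fatty acid desaturases therefore differed between clones. The Fads1 to Fads2 ratio of counts was 2.06 (1.77 to 2.40) in clone 8, 1.69 (1.45 to 1.97) in clone 14 and 2.11 (1.81 to 2.46) in clone 17. In the other 6 clones it lay between 1.14 and 1.27, and the interval for clone 4 included 1. On the TPM scale the Fads2 to Fads1 ratio was 1.17, 1.44 and 1.15 in clones 8, 14 and 17 and 1.90 to 2.11 elsewhere.

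**Figure D3:**
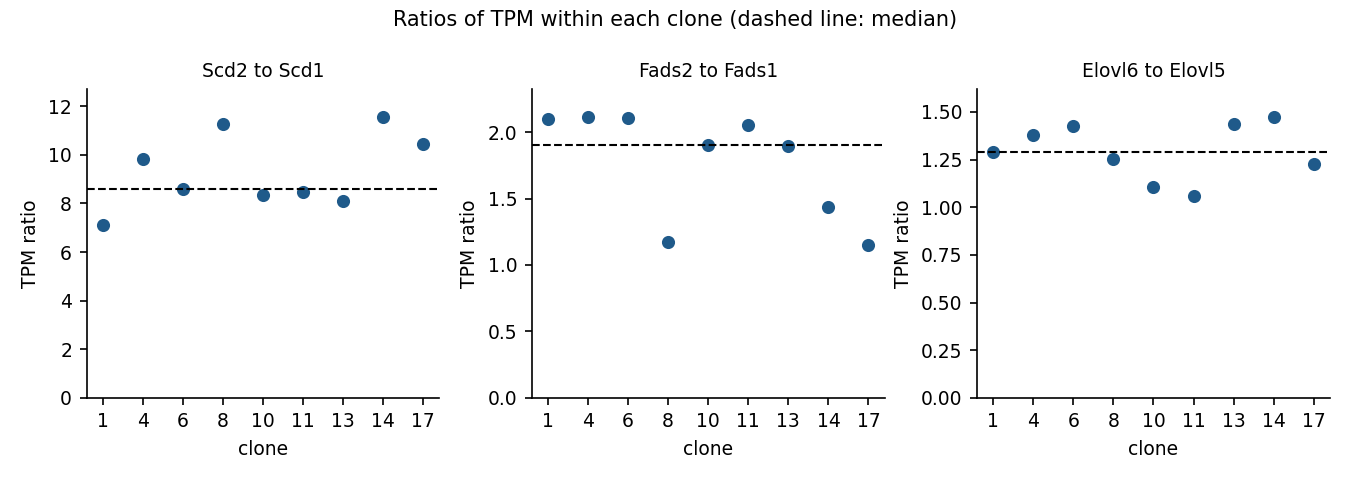
Ratio of TPM of Scd2 to Scd1, Fads2 to Fads1 and Elovl6 to Elovl5 within each of the 9 clones, with a dashed line at the median. Clones 8, 14 and 17 have the 3 lowest Fads2 to Fads1 ratios (1.15 to 1.44) and the 3 highest Scd2 to Scd1 ratios, up to 11.6.

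The elongases varied least. Elovl5 was at 82.5 CPM in clone 1, 66.0 in clone 4, 66.9 in clone 6, 73.4 in clone 8, 70.9 in clone 10, 72.7 in clone 11, 70.9 in clone 13, 57.7 in clone 14 and 69.3 in clone 17. Clone 1 was high and clone 14 low, each apart from its neighbour in the order by more than counting error, and the 7 clones between them were not separated step by step. The difference between them was 1.43-fold (1.30 to 1.58), a range of 0.51, which was 0.35 without clone 1 and 0.32 without clone 14. On the TPM scale clone 14 was again lowest and clone 11 highest, at 43.4 TPM.

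Elovl6 was at 162 CPM in clone 1, 131 in clone 4, 146 in clone 6, 160 in clone 8, 122 in clone 10, 135 in clone 11, 156 in clone 13, 125 in clone 14 and 133 in clone 17. Clones 1, 8 and 13 were high and clone 10 was low, 1.33-fold from clone 10 to clone 1 (1.24 to 1.42), a range of 0.41. Clone 8, low in Scd1, Scd2 and Fads2, was thus among the highest in Elovl6 on the CPM scale. On the TPM scale it was near the median, at 48.4 TPM, with clones 13, 6 and 1 highest at 56.2, 52.0 and 51.3 TPM. The Elovl6 to Elovl5 ratio of TPM ran from 1.06 in clone 11 to 1.47 in clone 14.

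Elovl6 was also the member with more than 1 well-filled transcript. Elovl6-201 held 44.2% to 68.1% of its TPM, Elovl6-205 12.2% to 30.3%, Elovl6-202 1.88% to 16.4%, Elovl6-203 0% to 18.3% and Elovl6-204 2.75% to 7.85%. The lowest Elovl6-202 shares were in clones 17, 8 and 11 (1.88%, 3.78% and 4.70%), and Elovl6-203 was listed at 0 in clone 8. These shares are estimates from reads that the transcripts largely have in common, and the files used give no error for them. For Elovl5, Elovl5-201 held 90.2% to 100% of the TPM, and the other 4 genes had 1 transcript each in the tables.

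Scd1 and Fads2, 2 of the 6 genes (33.3%), had a range of 1 log2 unit or more over the 9 clones, against 35.3% of all 13376 genes, so the share was near that of genes in general. Without clone 14, the range of Scd1 was 0.93 and 1 of the 6, Fads2, stayed above 1. The median range of the 6 was 0.69, and that of all genes 0.78. Larger ranges than theirs were found in 25.6% of all genes for Fads2, 27.3% for Scd1, 53.3% for Fads1, 62.5% for Scd2, 75.6% for Elovl5 and 86.7% for Elovl6. Of the 48 steps between neighbouring clones in the 6 orders, 14 exceeded counting error, so most neighbouring clones were not distinguishable.

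**Figure D4:**
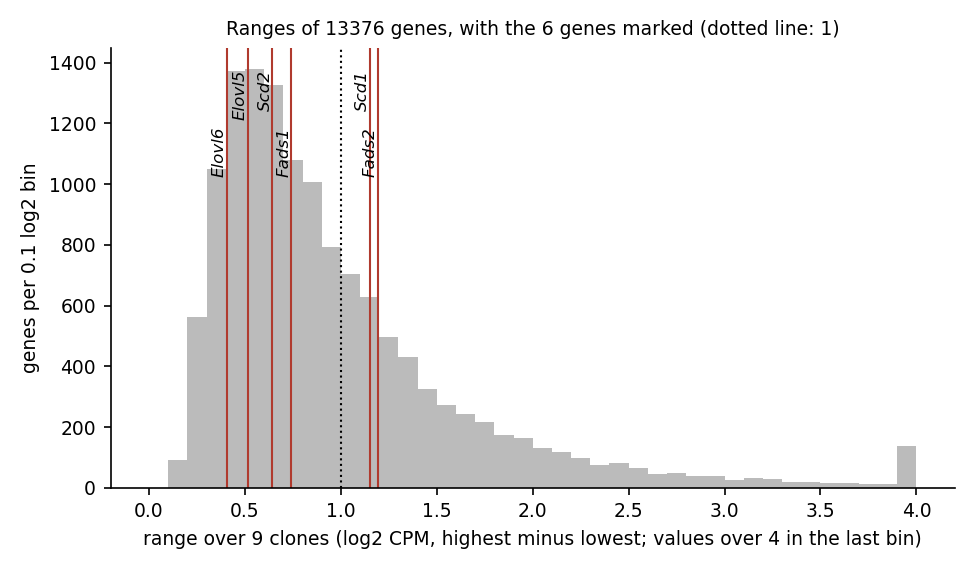
Histogram of the range over 9 clones (highest minus lowest log2 CPM) for 13376 genes in bins of 0.1, with red lines at the 6 genes and a dotted line at 1. Scd1 (1.15) and Fads2 (1.19) lie above 1, and Elovl6 (0.41) lies below most genes.

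The clones that recur were picked after the values were seen, so the counts that follow are descriptions. Scd1, Scd2 and Fads2, 3 of the 6, had clones 8, 14 and 17 all below the other 6, as did 14.1% of all genes. None of the 6 had them all above the others, against 13.2% of all genes. Fads1 and Fads2, 2 of the 6, had clones 1, 6 and 13 all above the others, against 6.29% of all genes. Clone 14 was among the lowest 3 clones for all 6 genes and lowest for Scd1, Scd2 and Elovl5, against 33.6% and 9.33% of all genes. On the CPM scale, clone 1 was among the highest 3 for 5 genes, all but Scd2, against 37.2% of all genes. Clone 1 was highest on that scale for Scd1, Fads2, Elovl5 and Elovl6, against 14.9% of all genes. On the TPM scale it was highest for none of these. There clone 11 was highest for Scd1 (20.6 TPM) and Elovl5 (43.4), clone 6 for Fads2 (41.0) and clone 13 for Elovl6 (56.2). The summed TPM of the 6 ran from 215 in clone 14 to 339 in clone 11.

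Clones 8, 14 and 17 also differed from the rest in whole chromosomes, though not in those that hold these genes. The median deviation of 1073 genes on chromosome 11 was -0.40, -0.36 and -0.39 log2 units in clones 8, 14 and 17, and 61.0% of its genes had these clones below all others. On chromosome 8 the median of 714 genes was 0.28, 0.32 and 0.32 there, and 0.26 in clone 10. On chromosome 19, which holds Scd1, Scd2, Fads1 and Fads2, the share was 11.3% of 441 genes. With each gene's mean over clones as the reference, the chromosome 19 medians stayed between -0.03 and 0.04 in all clones, and those of chromosome 9 (Elovl5) and chromosome 3 (Elovl6) between -0.03 and 0.04. Whether changes on other chromosomes bear on the levels of Scd1, Scd2 and Fads2 was not tested.

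The genes beside Scd1 and Scd2 did not show the same low clones, apart from the pair itself. The nearest measured genes were Cwf19l1, Bloc1s2 and Scd3 on the lower side and Ndufb8, Hif1an and Slf2 on the higher side. Bloc1s2 had its 2 highest values, 41.3 and 42.5 CPM, in clones 14 and 17, and Ndufb8 kept within a range of 0.36, Slf2 of 0.24 and Cwf19l1 of 0.37. Hif1an had a range of 0.97, with its lowest value in clone 1, where Scd1 was highest on the CPM scale. Scd3 was lowest in clone 14 (1.46 CPM), and its small counts share sequence with Scd1 and Scd2.

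Around Fads1 and Fads2, the order of clones was partly shared. Rab3il1 measured 20.6, 17 and 20.5 CPM for clones 1, 6 and 13 against at most 12.9 CPM for any other, so it had the same high clones as both desaturases. Fads3, between Rab3il1 and Fads2, had its lowest levels (1.31, 1.29 and 1.5 CPM) for clones 14, 17 and 8 and its highest (2.86 CPM) for clone 11, from low counts. Fth1 and Myrf were lowest in clone 1, and Fen1 and Tmem258 had ranges of 0.45 and 0.43. Next to Elovl5, Lrrc1, Gclc and Fbxo9 had ranges of 0.39, 0.61 and 0.88, Ick had 0.98, and Fam83b (0.81) and Gcm1 (1.63) had mean levels of 2.93 and 2.08 CPM. Next to Elovl6, Ap1ar had a range of only 0.13, Zgrf1 0.74, Gar1 0.89 and Pla2g12a 0.58, while Egf (1.03) had a mean level of 1.25 CPM.

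Likeness between profiles was measured as the root mean square difference of centred log2 CPM over the 9 clones, where 0 means the same profile. Among the 6, Elovl5 and Elovl6 were closest (0.12), then Fads1 and Elovl6 (0.17), Fads1 and Elovl5 (0.20) and Scd1 and Fads2 (0.21). Scd1 and Scd2 were 0.22 apart, Fads1 and Fads2 0.34, and Fads2 and Elovl6 the farthest (0.43). The measure favours pairs of small range, which includes the 2 elongases.

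Among 10150 other protein-coding genes that averaged 5 CPM or more, the 4 nearest to Scd2 were Utp6, Rabep1, Rtn4 and Gemin5 (0.04 to 0.06), and all 4 lie on chromosome 11. Nearest to Scd1 were Derl2, Slc33a1, Cep68 and Ahsa2 (0.09 to 0.10), of which 3 lie on chromosome 11. Nearest to Fads2 were Slc43a2, Gpc3, Amz2 and Adam19 (0.10 to 0.14), again with 3 on chromosome 11. That chromosome holds 8.41% of the protein-coding genes compared. It also holds 655 of the 1882 genes with clones 8, 14 and 17 all below the other 6. The nearest genes were picked for a like profile, so 8.41% is not the share to set beside them. A link between these 3 desaturases and chromosome 11 was not tested. Nearest to Fads1 were Tm9sf2, Phc1, Fam126a and Garnl3 (0.07 to 0.10), nearest to Elovl5 Dnajc10, Brox, Emc7 and Pdcd10 (0.05 to 0.07), and nearest to Elovl6 Plekha8, Polr3f, Sgo2a and Ank3 (0.05 to 0.07), with none on chromosome 11.

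Of the close relatives of the 6 enzymes, all but Degs1 were below 14 CPM in every clone. Of 11 listed paralogues, 8 were measured and 6 of these had a range of 1 or more, against 35.3% of all genes; their median range was 1.06, and most rest on few counts. Scd3 ran from 1.46 to 3.18 CPM, Fads3 from 1.29 to 2.86, Fads6 from 2.85 to 6.24 and Elovl2, another elongase of polyunsaturated chains, from 3.38 to 4.61. Elovl1 and Elovl4, elongases of very long chains, reached 13.4 and 12.2 CPM and were both highest in clones 10 and 11, the clones with keratin and collagen transcripts; the part of those markers in it was not tested. Elovl7 was lowest in clone 4 (2.58 CPM) and highest in clone 8 (6.46 CPM). Degs1, a desaturase of sphingolipids, was at 113 to 149 CPM, and Scd4, Elovl3 and Degs2 did not reach a mean of 1 CPM.

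Few partners of the elongation cycle and no gene listed as an electron donor reached a range of 1, against 35.3% of all genes. Of 6 measured cycle partners, 1 did (Hacd4, 0.77 to 2.32 CPM), while their median range of 0.82 was above the 0.78 of all genes. Hsd17b12, the ketoreductase of the cycle, was at 63.7 to 84.0 CPM, Hacd1 at 4.44 to 7.90 and Hacd2, a dehydratase, at 18.4 to 33.0. Tecr, the final reductase, lies on chromosome 8 and measured 110, 115 and 115 CPM for clones 8, 14 and 17 against 64.1 to 95.9 elsewhere. On that chromosome, 36.0% of genes had these clones above the other 6. The median range of the 5 measured genes listed as electron donors was 0.52. Cyb5a, cytochrome b5, was at 71.8 to 88.1 CPM, and Cyb5r3, the main reductase of cytochrome b5, at 105 to 157 with clones 13 and 6 highest. Cyb5b was at 129 to 219 CPM. The other 2 donors were highest in clones 8, 14 and 17, opposite to Scd1, Scd2 and Fads2: Cyb5r1 measured 65.6, 63.4 and 72.5 CPM there against at most 59.4 elsewhere, and Cyb5r4 57.6, 49.0 and 56.0 against at most 48.4. Among all genes, 13.2% had these clones above the others.

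Of 17 measured regulators, 5 (29.4%) reached a range of 1, against 35.3% of all genes. The median range was 0.66, against 0.78 for all genes. Srebf1 was at 128 CPM in clone 1, 131 in clone 4, 122 in clone 6, 70.0 in clone 8, 113 in clone 10, 109 in clone 11, 127 in clone 13, 83.3 in clone 14 and 73.6 in clone 17. Clones 8, 14 and 17 were thus lowest, as for Scd1, Scd2 and Fads2. Srebf1 lies on chromosome 11, where 61.0% of genes had these clones below the other 6. The part of the chromosome in its level was not tested. Insig1, a target and inhibitor of the same pathway, on chromosome 5, measured 59.9, 52.0 and 50.8 CPM for these 3 clones against 67.1 to 113 elsewhere. Srebf2 was lowest in clone 8 (86.1 CPM) but at 120 CPM in clone 14 and at most 136, and Scap, the escort of both precursors, was at 51.2 to 65.5 with clone 17 highest. Nfya was lowest in clone 1 (7.29 CPM, against 11.8 or more elsewhere), and Nr1h3 and Mlxipl were at 1.95 and 3.68 CPM at most. The remaining regulator with a range over 1 was Mbtps1 (1.02), a protease of the pathway on chromosome 8, named after its values were seen. Rxra and Mlx, also named after their values were seen, were the other 2 of the 4 regulators with clones 8, 14 and 17 lowest. These 4 were 23.5% of the 17, against 14.1% of all genes. Of the 4, Srebf1 and Mlx lie on chromosome 11, where the share was 61.0%. Another 2 of the 17 (11.8%) had those clones above the other 6, against 13.2% of all genes.

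Genes that supply and use the fatty acids differed among themselves. Of 7 measured supply genes, 3 (42.9%) had a range of 1 or more (median 0.93), against 35.3% of all genes (median 0.78). Fasn, which builds palmitate, measured 711, 727 and 622 CPM for clones 8, 14 and 17 against 963 to 1342 elsewhere, and with Acly and Acaca (named after their values were seen) made up the 3 supply genes with those clones lowest. All 3 lie on chromosome 11, where 61.0% of genes had those clones below the other 6, against 14.1% of all genes. Acss2 was highest in clone 13 (16.8 CPM), Acacb lowest in clone 11 (15.7 CPM), and Me1, malic enzyme, highest in clones 17, 8 and 14, at 30.4, 28.2 and 25.3 CPM.

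Of 8 acyl-CoA synthetases, which activate fatty acids, 4 had a range of 1 or more (median 0.93). Acsl5, on chromosome 19 like the 4 desaturases, measured 29.3, 35.0 and 26.1 CPM for clones 8, 14 and 17 against 45.8 to 56.5 elsewhere. Acsl3, on chromosome 1, and Acsl6, on chromosome 11, were also lowest in those clones. Acsl1, on chromosome 8, was highest in them, at 66.3, 60.7 and 63.1 CPM. On chromosome 11, 61.0% of genes had those clones below the other 6, and on chromosome 8, 36.0% had them above. In all, 3 of the 8 (37.5%) had those clones below the other 6, against 14.1% of all genes. Another 2 (25%) had them above, against 13.2% of all genes. Of 14 acyl transfer genes, 5 had a range of 1 or more (median 0.81), which were Dgat2, Lclat1, Lpcat2, Soat1 and Lpcat3, the last named after its values were seen. Dgat2, which makes triglyceride, measured 3.14, 4.52 and 3.45 CPM for clones 8, 14 and 17 against 6.66 to 13.6 elsewhere. Soat1, which makes cholesteryl ester, measured 35.6, 34.4 and 34.7 CPM there against 50.1 to 80.4 elsewhere, and Lclat1 was lowest there too. These were 3 of the 14 (21.4%), against 14.1% of all genes, and 1 (7.14%) had those clones above the others, against 13.2%. None of 5 measured genes of peroxisomal chain shortening reached a range of 1 (median 0.53), among them Acaa1a (43.1 to 77.1 CPM), Scp2 (48.9 to 70.8) and Hsd17b4 (84.6 to 117). Over all lists without the 6 members, 24 of 70 measured genes (34.3%) had a range of 1 or more, close to the 35.3% of all genes.

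**Figure D5:**
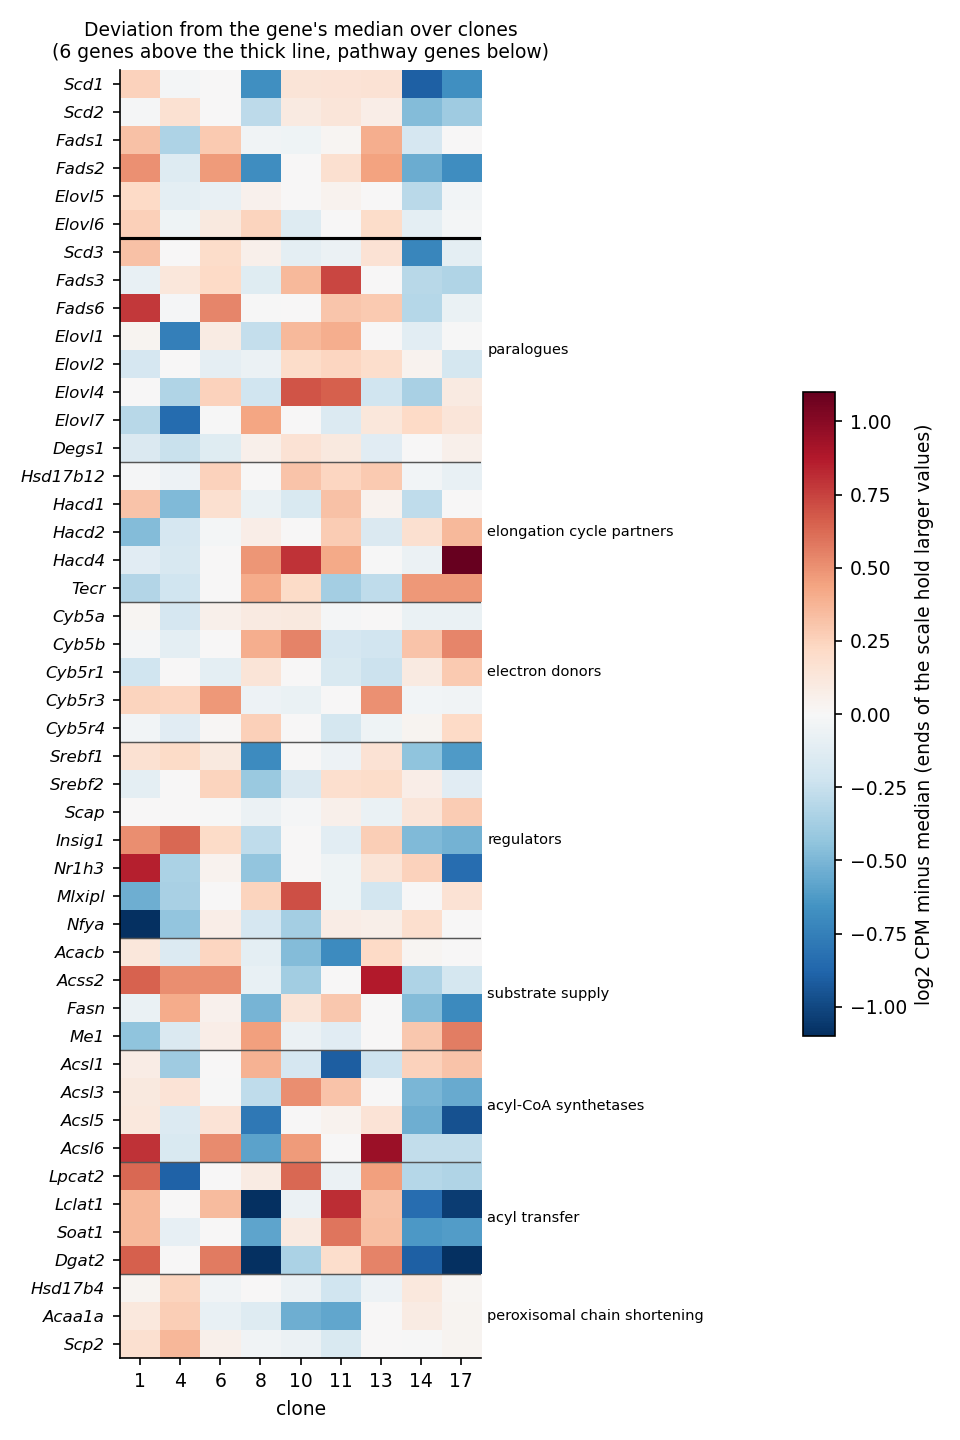
Deviation of log2 CPM from each gene's median over the 9 clones (columns) for the 6 genes above the thick line and named genes of the 8 pathway lists below, blue for lower and red for higher. Scd1, Scd2 and Fads2 share low values in clones 8, 14 and 17 with Fads3, Srebf1, Insig1, Fasn, Acsl3, Acsl5, Acsl6, Lclat1, Soat1 and Dgat2. Elovl7, Tecr, Cyb5r1, Cyb5r4, Me1 and Acsl1 are high there. Among all genes, 14.1% had these clones below the other 6 and 13.2% above.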

How the data were processed

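RNA of 9 clones was made into stranded poly(A) libraries (TruSeq Stranded mRNA), per the labels' protocols. The submitters' processing notes name CASAVA 1.8, FastQC, Trimmomatic 0.33 and kallisto 0.43.1, with builds mm10 and GRCm38; of the annotation release, these sources say nothing. The deposited tables hold estimated counts and TPM per transcript, as the authors' kallisto run gave them per the file headers. Of 115270 transcripts, 98.53% matched GENCODE M21 by identifier and were summed per gene; unmatched transcripts held 0.641% to 0.773% of the estimated counts and were left out.

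CPM is the estimated count per 1000000 of the TMM-scaled library size (edgeR 4.0.16, R 4.3.3), with factors from genes that averaged 1 CPM or more. Log2 values used a prior count of 2. A range is the highest minus the lowest log2 CPM, and folds carry 95% exact conditional (Clopper-Pearson) intervals of counts rounded to whole numbers. No model was fitted and no p-value was computed. Range and distance code was tested on simulated data. Alternatives were DESeq2 1.42.0 median-ratio size factors, a prior count of 0.5, log2(TPM + 1), other filters and leaving out each clone; leaving out clones 10 and 11 or 8, 14 and 17, and the gene mean as reference, were added after seeing the data.

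The 6 genes and the gene lists were chosen with earlier results of these data known. Named genes are the 6 genes, all paralogues, up to 4 genes of largest range per other pathway list, Srebf1, Srebf2, Scap, Insig1, Fasn, Hsd17b12, Tecr and Cyb5a, the 3 nearest measured genes on each side, and the 4 nearest profiles; 2 of the genes named by these rules are not reported here. Sequences came from RefSeq promoters (GRCm38.p6) and GENCODE M21 transcripts (GRCm38); protein sequences were not used here.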

Additional observations from a re-analysis of the deposited data

How the results depend on the processing

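Of 139 recomputed values, 124 stayed within the limits set for them. The limit was the counting interval for a gene's range and 1.5 times for a count. For a TPM ratio it was the standard deviation over clones, and for the spread of a chromosome's clone medians a fixed cut. A gene's range can change on leaving out a clone only if that clone held its highest or lowest value. Many of these values could therefore not move, and their number is no measure of stability. With log2(TPM + 1), the range of Scd2 was 0.78. Genes with a range of 1 or more numbered 11610 of 24909 without a filter and 2416 of 10415 among those averaging 5 CPM or more; the number of genes entering differs by construction. Leaving out each clone gave ranges of 0.93 to 1.15 for Scd1, 0.56 to 0.64 for Scd2, 0.59 to 0.74 for Fads1, 1.16 to 1.19 for Fads2, 0.32 to 0.51 for Elovl5 and 0.37 to 0.41 for Elovl6. Genes with a range of 1 or more then numbered from 4265 of 13334 (without clone 11) to 4628 of 13390 (without clone 6). Pathway genes with such a range numbered 18 to 24 and members 1 to 2. Without clone 14, only Fads2 of the members remained above 1. Without clones 8, 14 and 17, chosen after seeing the data, the ranges were 0.27 (Scd1), 0.18 (Scd2), 0.65 (Fads2) and 0.32 (Elovl5). In that setting 3052 of 13441 genes, 0 members and 10 of 70 pathway genes had a range of 1 or more. Clones 8, 14 and 17 hold the lowest values of Scd1, Scd2 and Fads2. No paired analysis was possible because the labels give no groups. With 1 library per clone, counting error is the only error known, and differences near it, such as most steps between neighbouring clones, could not be resolved at this depth.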
